A study of Mus musculus with 8 samples.

Results

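Histone H4 acetylation was examined over 7 chemokine receptor genes of the mouse: Ccr1, Ccr2, Ccr3, Ccr7, Ccrl2, Cx3cr1 and Cxcr4. They were taken by symbol from 21887 protein-coding genes of the RefSeq annotation of GRCm38.p6. The libraries came from bone-marrow-derived macrophages (BMDM), which are macrophages grown from the marrow of C57BL/6 mice. Cells were given 25HC (25-hydroxycholesterol, an oxysterol) and then the stimulus PAM3 (PAM3CSK4, a synthetic lipopeptide sensed by Toll-like receptors), PAM3 alone, 25HC alone, or neither. Each of the 4 groups held 2 libraries, 1 from mouse A and 1 from mouse B. The label for stimulation time reads 18, with no unit, in every library with PAM3 and 0 in every library without it, so the stimulus and that time cannot be told apart. Antibody enrichment of acetylated H4 was sequenced and the deposited files list the enriched intervals (peaks) of each library. The measure was the called length, which is the number of bp covered by peaks in a gene body with 5 kb on either side. It records how far peaks extend and not how strong they are, and a value of 0 says that no peak was listed.

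Chemokine receptors are G-protein-coupled receptors that sense gradients of small secreted proteins and steer the migration of leukocytes. Monocytes and macrophages use Ccr1 and Ccr2 to reach inflamed tissue, and Cx3cr1 for patrolling, survival and tissue residence. Ccr7 guides mature dendritic cells and lymphocytes to lymph nodes, Ccr3 is the eotaxin receptor of eosinophils, and Cxcr4 retains haematopoietic cells in the marrow. Ccrl2 is an atypical receptor that binds the chemoattractant chemerin and presents it to its signalling receptor. Acetylated H4 marks active promoters and enhancers.

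The peak lists held 48446 to 54552 peaks per library and covered 56.6 Mb (PAM3 A) to 72.4 Mb (PAM3 B). Read depth is unknown, since the lists hold no read counts. All 8 macrophage markers examined (Csf1r, Cd68, Mertk, Fcgr1, Itgam, Spi1, Lyz2 and Adgre1) had called length in every group. In each library their summed length lay between 60392 and 91515 bp. Adgre1, which encodes F4/80, had 13703 and 14755 bp in 25HC then PAM3 A and B, 17121 and 21938 bp in PAM3 A and B, 4242 and 5210 bp in 25HC A and B, and 3247 and 4010 bp in untreated A and B. It rose over 4 libraries with PAM3 against 4 without (log2 1.90; limma, adjusted p = 0.00261, or 0.0105 in a fit blocked on the mouse), as did Itgam (log2 0.39, adjusted p = 0.0363, blocked 0.0681), and the other 6 did not pass. The PAM3 libraries stood at the ends of the range for several receptors. PAM3 A had the lowest value of all libraries for Ccr1 and Ccrl2 and no peak at Ccr7, and PAM3 B had the highest value for Ccr3 and Cx3cr1 and the lowest for Cxcr4.

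The promoters of 5 receptors are shown because their coverage by peaks ranged from complete in every library to none in any. The sequences are those of RefSeq (GRCm38.p6), from 250 bases before to 50 bases after the listed gene start, on the strand of the gene. They are Cxcr4 (chr1:128592250-128592549, minus strand), the outermost of 3 listed starts of Ccrl2 (chr9:111057469-111057768, minus), Ccr1 (chr9:123968643-123968942, minus), Ccr2 (chr9:124101933-124102232, plus) and Ccr3 (chr9:124021721-124022020, plus). Capitals mark matches to the motifs searched.
Cxcr4: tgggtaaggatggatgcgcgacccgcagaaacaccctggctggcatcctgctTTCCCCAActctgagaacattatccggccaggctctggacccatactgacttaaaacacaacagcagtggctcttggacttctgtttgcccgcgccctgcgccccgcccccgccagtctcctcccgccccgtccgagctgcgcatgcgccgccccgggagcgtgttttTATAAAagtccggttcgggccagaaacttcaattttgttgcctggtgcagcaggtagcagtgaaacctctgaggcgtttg
Ccrl2: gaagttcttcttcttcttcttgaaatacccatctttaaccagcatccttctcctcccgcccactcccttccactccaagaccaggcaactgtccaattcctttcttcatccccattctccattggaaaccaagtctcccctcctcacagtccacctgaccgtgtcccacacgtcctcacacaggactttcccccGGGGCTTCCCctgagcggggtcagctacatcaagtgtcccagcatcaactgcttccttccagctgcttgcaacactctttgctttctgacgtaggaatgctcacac
Ccr1: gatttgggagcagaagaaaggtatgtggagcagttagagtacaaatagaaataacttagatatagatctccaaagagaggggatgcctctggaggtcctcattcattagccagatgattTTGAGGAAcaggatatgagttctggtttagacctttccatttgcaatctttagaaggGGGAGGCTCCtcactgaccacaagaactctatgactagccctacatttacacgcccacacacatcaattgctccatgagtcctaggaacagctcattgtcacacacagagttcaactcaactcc
Ccr2: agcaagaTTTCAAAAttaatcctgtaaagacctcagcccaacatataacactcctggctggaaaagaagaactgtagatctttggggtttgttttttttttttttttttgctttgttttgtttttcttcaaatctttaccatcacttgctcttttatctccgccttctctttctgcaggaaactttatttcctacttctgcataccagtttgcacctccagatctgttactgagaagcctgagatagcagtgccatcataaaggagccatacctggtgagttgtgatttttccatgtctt
Ccr3: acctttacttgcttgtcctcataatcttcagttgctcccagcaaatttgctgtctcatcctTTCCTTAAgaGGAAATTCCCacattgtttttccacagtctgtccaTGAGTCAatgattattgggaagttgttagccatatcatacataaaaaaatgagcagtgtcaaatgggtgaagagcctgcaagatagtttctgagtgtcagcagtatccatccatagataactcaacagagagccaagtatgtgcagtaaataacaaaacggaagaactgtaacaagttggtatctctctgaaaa

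The motifs were AP-1 (TGANTCA), CRE (TGACGTCA), PU.1 (GAGGAAGT), C/EBP (TTNNGNAA), NF-kappaB and ISRE on both strands, and the TATA box (TATAAA) on the gene strand. No matches of different motifs overlapped in these promoters. Ccr1 held an NF-kappaB match that began 74 bases before the start and a C/EBP match 131 bases before it. Ccrl2 held an NF-kappaB match, readable on both strands, 56 bases before its outermost start. Ccr3 held NF-kappaB, AP-1 and C/EBP matches, beginning 179, 144 and 189 bases before the start. Cxcr4 held a TATA box 30 bases and a C/EBP match 198 bases before the start, and Ccr2 a C/EBP match 243 bases before it. Of 32851 promoters of the same length, 8.46% held the NF-kappaB motif, 7.81% AP-1, 40.7% C/EBP and 8.32% the TATA box. The motifs without a match in the printed promoters were CRE, PU.1 and ISRE, held by 1.79%, 3.2% and 3.44% of promoters. The Cx3cr1 promoter (chr9:120068247-120068546, minus) held none of these letters. These matches describe the letters only.

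Peak coverage of these 300 bases separated the receptors. All 300 bases of the Ccrl2 promoter were called in all 8 libraries, from each of the 3 listed starts. The Cxcr4 promoter was called in full in 7 libraries and over 208 bases in PAM3 B. The Ccr1 promoter was called in full in 6 libraries, with 139 bases in PAM3 A and 103 in untreated A. That of Cx3cr1 was called over 80 to 171 bases in every library. The Ccr2 promoter was called in full in 25HC B, over 76 and 101 bases in untreated A and B, and not at all in the other 5 libraries. No library had a peak over the listed Ccr3 promoter. The annotated Ccr3 gene body begins upstream of that listed start, at chr9:124017825, and peaks of untreated B and PAM3 B covered that end. Between 37.0% and 38.3% of all promoters in the table were called over at least 50% of their length in a library.

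PAM3 against untreated cells asks how the stimulus bears on the receptors in cells without added oxysterol, and the contrast of 25HC then PAM3 with 25HC puts that question after the oxysterol. None of the 7 receptor genes rose or fell in any of the 6 contrasts (limma, adjusted p under 0.05 over 14589 genes tested). All 7 had passed the filter on low values, which asked for 500 bp or more on average over the libraries. Ccr7 passed it through libraries with PAM3 alone, being at 0 in the others, so its p values follow a selection on those libraries. At an unadjusted p under 0.05, Ccr7 and Cx3cr1 passed in 25HC then PAM3 against 25HC and in the average over PAM3 (4 libraries against 4), and no receptor passed in the other contrasts. Over all genes tested, 3.87% were called in PAM3 against untreated, 5.02% in 25HC then PAM3 against 25HC and 0.0343% in 25HC against untreated. The share was 1.3% in 25HC then PAM3 against PAM3, 11.8% in the average over PAM3, and 0 in the interaction, which sets the response to PAM3 after 25HC against that without it, and where 1438 genes had an unadjusted p under 0.05 (limma). With 2 libraries per group the 95% intervals were narrowest for Ccrl2, wider for Cxcr4, Cx3cr1 and Ccr3, and widest for Ccr2, Ccr1 and Ccr7. A p over the threshold does not show that groups were alike.

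**Figure D1:**
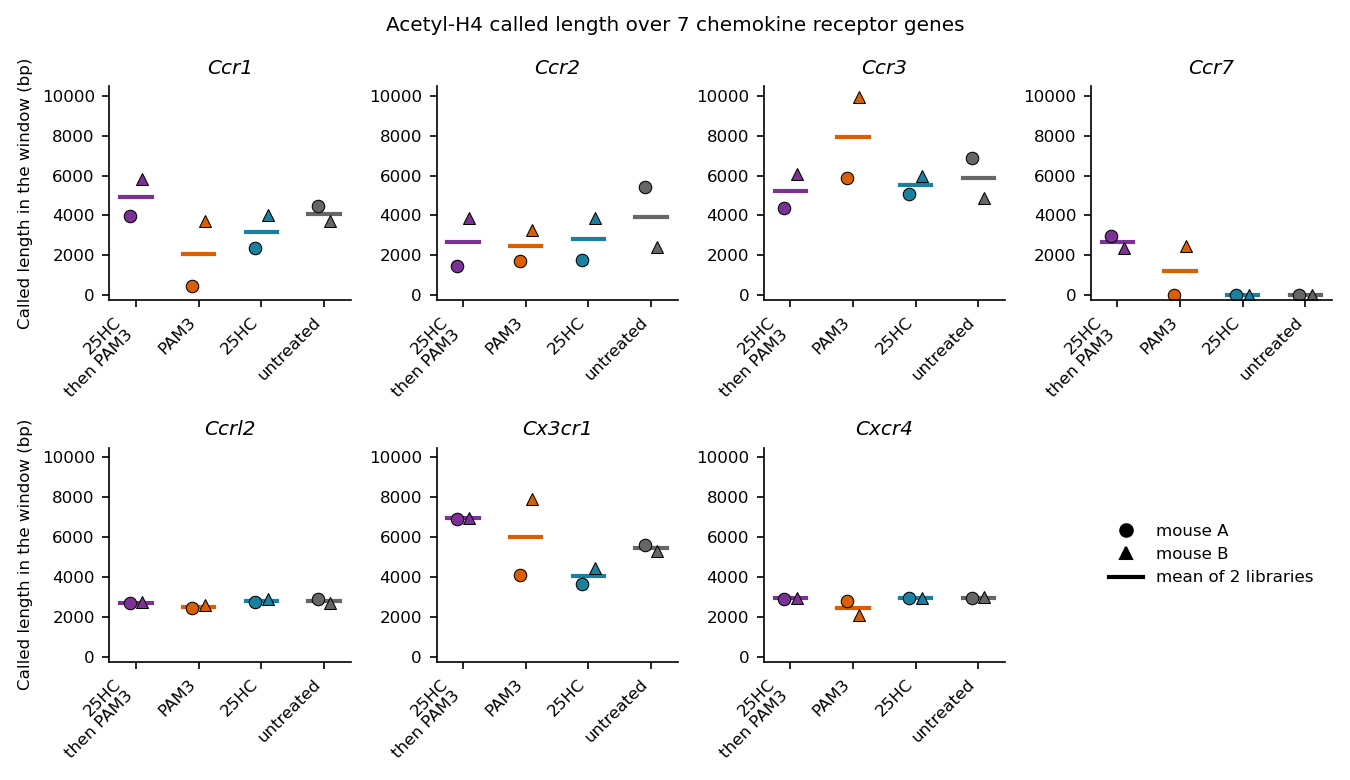
Called length (bp, vertical axis) over each of the 7 receptor genes with 5 kb on either side, by group; circles are libraries of mouse A, triangles those of mouse B, and bars the mean of both. Ccrl2 and Cxcr4 lie between 2083 and 2966 bp in every library, and Ccr7 is above 0 in 3 of the 4 libraries with PAM3 and at 0 in all others.

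The called length of some receptors varied little between libraries and that of others widely. The coefficient of variation over the 8 libraries was 5.55% for Ccrl2 and 10.8% for Cxcr4. It was 27.3% for Cx3cr1, 28.2% for Ccr3, 44.3% for Ccr1, 46.8% for Ccr2 and 139% for Ccr7. Of the genes tested, 5.92% varied less than Ccrl2 and 99.7% less than Ccr7. Peaks of the 8 lists that touched were merged, which gave 31 regions over the 7 windows. Of these, 9 were called in all 8 libraries, 5 in a single library and 17 in 2 to 7. Of the 31, 8 were called in libraries with PAM3 and in none without, and 3 in libraries without PAM3 and in none with it. Of the 8, only Ccr3 region 5 was called in all 4 libraries with PAM3. Ccr1 region 1, Ccr3 region 2 and Ccr7 region 2 were called in 1 library each. Of the 3, Ccr2 region 3 and Cx3cr1 region 2 were each called in 1 library. Among genes tested, 11.5% had at least 200 bp called in all 4 libraries with PAM3 and in none without, and 14.3% the reverse. Such regions were not counted over all genes.

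Ccr7 had peaks in cells given PAM3 and in no others. Its called length was 2984 and 2366 bp in 25HC then PAM3 A and B, 0 and 2447 bp in PAM3 A and B, 0 in both 25HC libraries and 0 in both untreated libraries. Every library without PAM3 was thus at 0, and so was PAM3 A. After 25HC, the Ccr7 window of cells given PAM3 had 2675 ± 437 bp against 0 bp in cells without it (SD, n = 2 each; limma, adjusted p = 0.111). Both libraries with PAM3 lay above both without, as 53.5% of genes tested did in 1 direction or the other and 28.2% in this direction. Without 25HC, 1224 ± 1730 bp with PAM3 stood against 0 bp (SD, n = 2 each; limma, adjusted p = 0.407). That value turns on the PAM3 libraries: the log2 difference of Ccr7 was 2.50 without PAM3 A (adjusted p = 0.0221) and 0.15 without PAM3 B (adjusted p = 0.901). Over 4 libraries against 4, Ccr7 had 1949 ± 1328 bp with PAM3 and 0 bp without (SD, n = 4 each; limma, adjusted p = 0.0672; two-sided exact permutation p = 0.143).

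The Ccr7 gene body lies at chr11:99144199-99155077, and its peaks fell at 3 places. Region 3, inside the gene body (chr11:99149999-99152095), held 1994, 1771 and 1383 bp in 25HC then PAM3 A, 25HC then PAM3 B and PAM3 B. Region 1, outside the gene body (chr11:99141692-99142755), held 777, 595 and 1064 bp in the same libraries. A short region of 213 bp inside the gene body (chr11:99144480-99144692) was called in 25HC then PAM3 A alone. The same inner and outer places were therefore called in both mice after 25HC then PAM3. No base of the window was called in all 4 libraries with PAM3, since PAM3 A had none. Ccr7 is best known from mature dendritic cells, and the 7 dendritic cell markers examined summed to 14063 to 16721 bp with 25HC then PAM3, 14041 to 15207 bp with PAM3, 19077 to 22972 bp with 25HC and 25744 to 26490 bp in untreated cells. Ccl22 among them had 1296 and 933 bp in 25HC then PAM3 A and B, 403 and 0 bp in PAM3 A and B, 0 in both 25HC libraries, and 1161 and 0 bp in untreated A and B. Of these markers, Siglech and Clec9a fell in PAM3 against untreated (limma, log2 −2.60 and −1.40, adjusted p = 0.00997 and 0.0400). Clec9a did not pass in the fit that blocks on the mouse (adjusted p = 0.0645), and its window overlaps those of Clec12b, Clec1b and Clec1a. Siglech also fell in 25HC then PAM3 against 25HC (log2 −0.92, adjusted p = 0.031, blocked 0.0667). It rose in 25HC then PAM3 against PAM3 (log2 1.485, adjusted p = 0.0237, blocked 0.0751). Fscn1, a marker of mature dendritic cells, had 971 and 1987 bp in 25HC then PAM3 A and B and 792 and 1962 bp in PAM3 A and B. It had 797 and 956 bp in 25HC A and B, and 1217 and 0 bp in untreated A and B. The PAM3 and untreated libraries of Fscn1 overlapped. Fscn1 did not pass in 25HC then PAM3 against 25HC or in PAM3 against untreated (limma, adjusted p = 0.767 and 0.452). Peaks from a bulk culture do not tell more cells of a type apart from more acetylation per cell. The part of dendritic cells in the Ccr7 values was not tested.

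**Figure D2:**
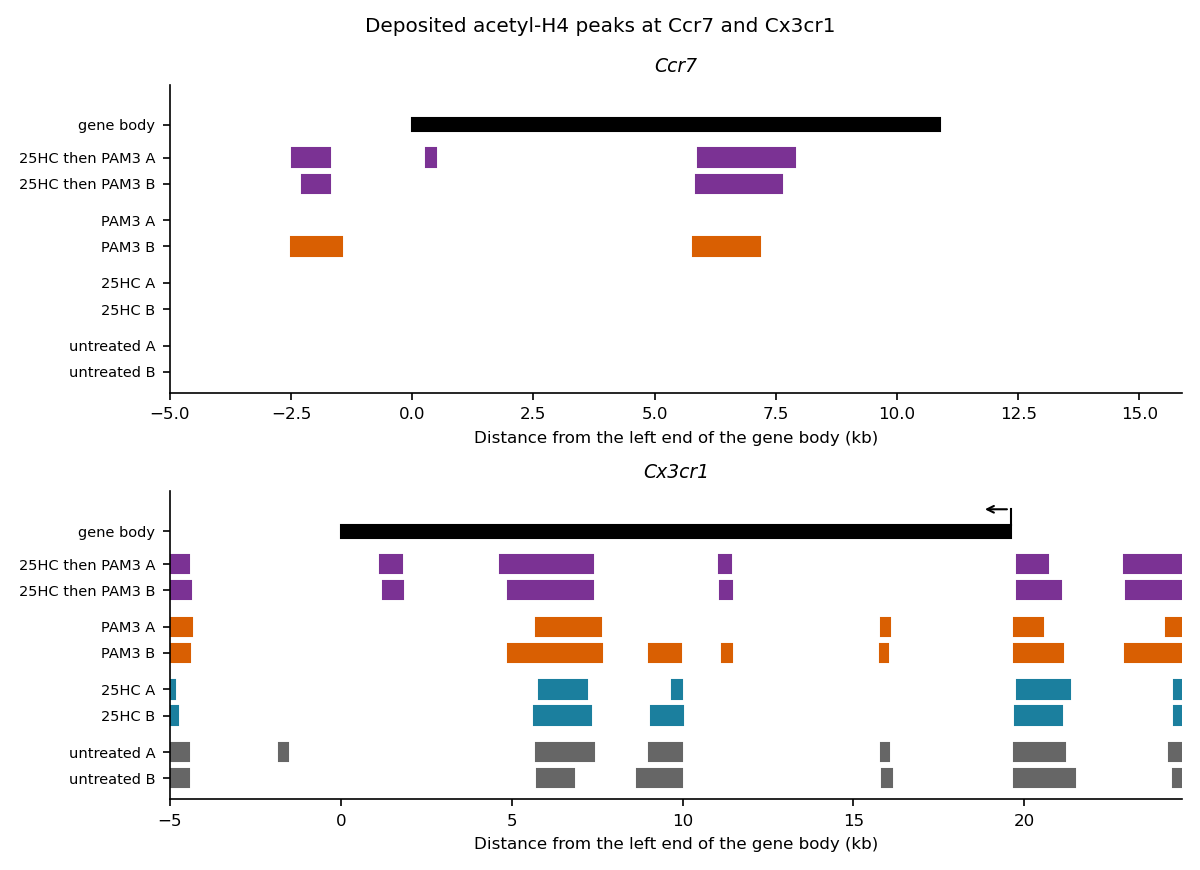
Peaks at Ccr7 (top) and Cx3cr1 (bottom) in each library, by distance in kb from the left end of the gene body (black bar); coloured bars are peaks and the arrow marks a listed gene start. Ccr7 peaks appear in 3 libraries, all with PAM3, and the Cx3cr1 region near 1 kb is present in both 25HC then PAM3 libraries and in no other.

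Cx3cr1, the fractalkine receptor, had its longest acetylation in cells given 25HC then PAM3 and in PAM3 B. Called length was 6896 and 6981 bp in 25HC then PAM3 A and B, 4105 and 7922 bp in PAM3 A and B, 3658 and 4449 bp in 25HC A and B, and 5593 and 5308 bp in untreated A and B. After 25HC, both libraries with PAM3 were above both without, while the PAM3 libraries lay on either side of the untreated ones. The difference of 25HC then PAM3 from 25HC was 0.69 on the log2 scale (SE 0.22, 95% interval 0.15 to 1.23; limma, adjusted p = 0.144). PAM3 against untreated gave 0.11 (SE 0.22; adjusted p = 0.857), and the difference between these responses was 0.58 (SE 0.31; adjusted p = 0.635). Both 25HC libraries were below both untreated ones, by −0.33 on the log2 scale (SE 0.22; adjusted p = 1). Over 4 libraries against 4, Cx3cr1 had 6476 ± 1648 bp with PAM3 and 4752 ± 877 bp without (SD, n = 4 each; limma, adjusted p = 0.170; two-sided exact permutation p = 0.114). For 25HC then PAM3 against 25HC, leaving out 1 library at a time gave Cx3cr1 log2 values of 0.59 to 0.78 with adjusted p up to 0.403, and Ccr7 values of 2.45 to 2.82 with adjusted p up to 0.308. The adjusted p was under 0.05 only in the fits without a PAM3 library, which is in neither of these groups but bears on the shared estimate of the spread. It was 0.0409 for Cx3cr1 and 0.0188 for Ccr7 without PAM3 A, and 0.0406 and 0.0290 without PAM3 B. For the average over PAM3, the adjusted p of Cx3cr1 was 0.0216 without PAM3 A and up to 0.344 without another library. That of Ccr7 was 0.00590 without PAM3 A, 0.0457 without PAM3 B and up to 0.161 without another library.

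The Cx3cr1 window (gene body chr9:120048683-120068296, minus strand) held 9 regions, of which 4 were called in all 8 libraries. These 4 included the peak that ends 80 bases before the gene start and the longest intragenic peak. Region 3 (chr9:120049834-120050494), inside the gene body and 17802 bp downstream of the start, was called over 643 and 585 bp in 25HC then PAM3 A and B and in no other library. In all, 626 bp of the window were called in both 25HC then PAM3 libraries and in no other, and 16.8% of genes tested had at least 200 such bp. Region 6 (chr9:120059751-120060124) was called in 25HC then PAM3 A, 25HC then PAM3 B and PAM3 B, over 354, 344 and 288 bp. Region 5 (chr9:120057348-120058700) was called over 938 bp in PAM3 B and over 303 to 1315 bp in all 4 libraries without PAM3, and in neither 25HC then PAM3 library nor PAM3 A. Region 7 (chr9:120064472-120064800) was called over 229 to 281 bp in the PAM3 and untreated libraries and in no library with 25HC. The most distant region upstream of the start (region 9, chr9:120071606-120073599) held 1691 and 1626 bp in 25HC then PAM3 A and B, 465 and 1679 bp in PAM3 A and B, 232 bp in both 25HC libraries, and 389 and 250 bp in untreated A and B. The body of the noncoding gene Gm33858 lies in the Cx3cr1 window, so peaks in that body cannot be told apart between the 2 genes.

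Ccr1, Ccr2 and Ccr3 form a cluster on chromosome 9. The span from the window of Ccr1 to that of Ccr2 (chr9:123957126-124114140) had 26408 and 39019 bp called in 25HC then PAM3 A and B, 26546 and 29571 bp in PAM3 A and B, 34296 and 39136 bp in 25HC A and B, and 48887 and 36661 bp in untreated A and B. Both PAM3 libraries lay below both untreated ones there, as 30.2% of genes tested did over their own windows. The span includes bases outside the windows of these receptors. Within the window of each of Ccr1, Ccr2 and Ccr3, the PAM3 and untreated libraries overlapped. The 25HC then PAM3 libraries overlapped the range of the 25HC ones.

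Ccr1, a receptor for Ccl3, Ccl5, Ccl6 and Ccl9, had 3985 and 5826 bp in 25HC then PAM3 A and B, 460 and 3708 bp in PAM3 A and B, 2353 and 4007 bp in 25HC A and B, and 4462 and 3701 bp in untreated A and B. PAM3 A was far below all others, and both 25HC then PAM3 libraries were above both PAM3 ones. That difference was 1.40 on the log2 scale (SE 0.61, 95% interval −0.12 to 2.91; limma, adjusted p = 0.373). PAM3 against untreated gave −1.14 (SE 0.61; adjusted p = 0.395), and the response to PAM3 was 1.68 higher with 25HC than without (SE 0.87; adjusted p = 0.618). These 3 values rest on PAM3 A: without it they were 0.44, −0.18 and 0.72, and without PAM3 B 2.36, −2.10 and 2.64, with no adjusted p under 0.05. In the exact permutation test of 4 libraries with PAM3 against 4 without, p was 0.857 (two-sided). The peak over the Ccr1 start (chr9:123967297-123969373) was called in all 8 libraries, over 1225 and 2045 bp in 25HC then PAM3 A and B, 460 and 980 bp in PAM3 A and B, 1710 and 1747 bp in 25HC A and B, and 1356 and 696 bp in untreated A and B. A region of 305 bp, 2600 bp upstream of the start (chr9:123971292-123971596), was called in untreated cells alone, over 231 and 301 bp. Both libraries shared 227 of those bp, and 9.93% of genes tested had at least 200 bp called in both untreated libraries and in no other. The window of Ccr1 overlaps that of its paralog Ccr1l1.

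Ccr2, which draws monocytes out of the marrow along Ccl2 and Ccl7, had 1450 and 3875 bp in 25HC then PAM3 A and B, 1688 and 3261 bp in PAM3 A and B, 1773 and 3869 bp in 25HC A and B, and 5447 and 2417 bp in untreated A and B. Libraries of mouse B were longer than those of mouse A in every group but the untreated one, and all 4 groups overlapped. Log2 differences lay between −0.49 in PAM3 against untreated (SE 0.54; limma, adjusted p = 0.693) and 0.36 for the difference of the PAM3 responses (SE 0.76; adjusted p = 0.924). The exact permutation p over PAM3 was 0.429 (two-sided, n = 4 each). Not one base of the Ccr2 window was called in all 8 libraries. The merged region at its start (chr9:124100907-124104037) was called over 472 and 727 bp in 25HC then PAM3 A and B and 1688 bp in PAM3 A. It held 2910 bp in 25HC B, and 1855 and 1877 bp in untreated A and B, and was missing from PAM3 B and 25HC A. Only the peaks of 25HC B and untreated A and B covered the listed start (chr9:124102183). Those of PAM3 A and of 25HC then PAM3 A and B began downstream of it, at 124102329, 124103234 and 124103311. The 4 monocyte markers summed to 10458 to 10669 bp with 25HC then PAM3, 11483 to 19596 bp with PAM3, 13135 to 15609 bp with 25HC and 15953 to 16543 bp in untreated cells. Ly6c2 among them was at 0 in every library. Over 4 libraries with PAM3 against 4 without, F13a1 fell (log2 −0.91; limma, adjusted p = 0.0120, blocked 0.0222). The part of monocytes in the Ccr2 values was not tested.

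Ccr3 had peaks in its window in every library, none of them over its listed start. Called length was 4373 and 6077 bp in 25HC then PAM3 A and B, 5876 and 9953 bp in PAM3 A and B, 5074 and 5977 bp in 25HC A and B, and 6875 and 4899 bp in untreated A and B. Every pair of groups overlapped. PAM3 against untreated gave 0.42 on the log2 scale (SE 0.24; limma, adjusted p = 0.422), and 25HC then PAM3 against PAM3 gave −0.54 (SE 0.24; adjusted p = 0.382). The exact permutation p over PAM3 was 0.629 (two-sided, n = 4 each). Without PAM3 B these values were 0.17 and −0.29. Region 5, a short place inside the gene body (chr9:124030684-124030960), was called over 268 and 254 bp in 25HC then PAM3 A and B, over 252 and 219 bp in PAM3 A and B, and in none of the 4 libraries without PAM3. The 4 peaks shared 230 bp, and 11.5% of genes tested had at least 200 bp called in all 4 libraries with PAM3 and in none without. Ccr3 was the only one of the 7 receptors with as many such bp, a share near that of all genes. Region 1 at the left end of the gene body (chr9:124015422-124020801) was called in 7 libraries, over 3155 to 4175 bp in all 4 without PAM3, over 3184 and 5317 bp in PAM3 A and B, over 1546 bp in 25HC then PAM3 B and not in 25HC then PAM3 A. Of 4 eosinophil markers, Epx and Prg2 were at 0 in every library, and Siglecf had 3803 and 3759 bp in 25HC then PAM3 A and B, 4838 and 5259 bp in PAM3 A and B, 2672 and 3721 bp in 25HC A and B, and 3779 and 3691 bp in untreated A and B. Their sum was 3759 to 3803, 4838 to 5259, 2926 to 4168 and 3691 to 4086 bp in the same groups, and their part in the Ccr3 values was not tested.

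**Figure D3:**
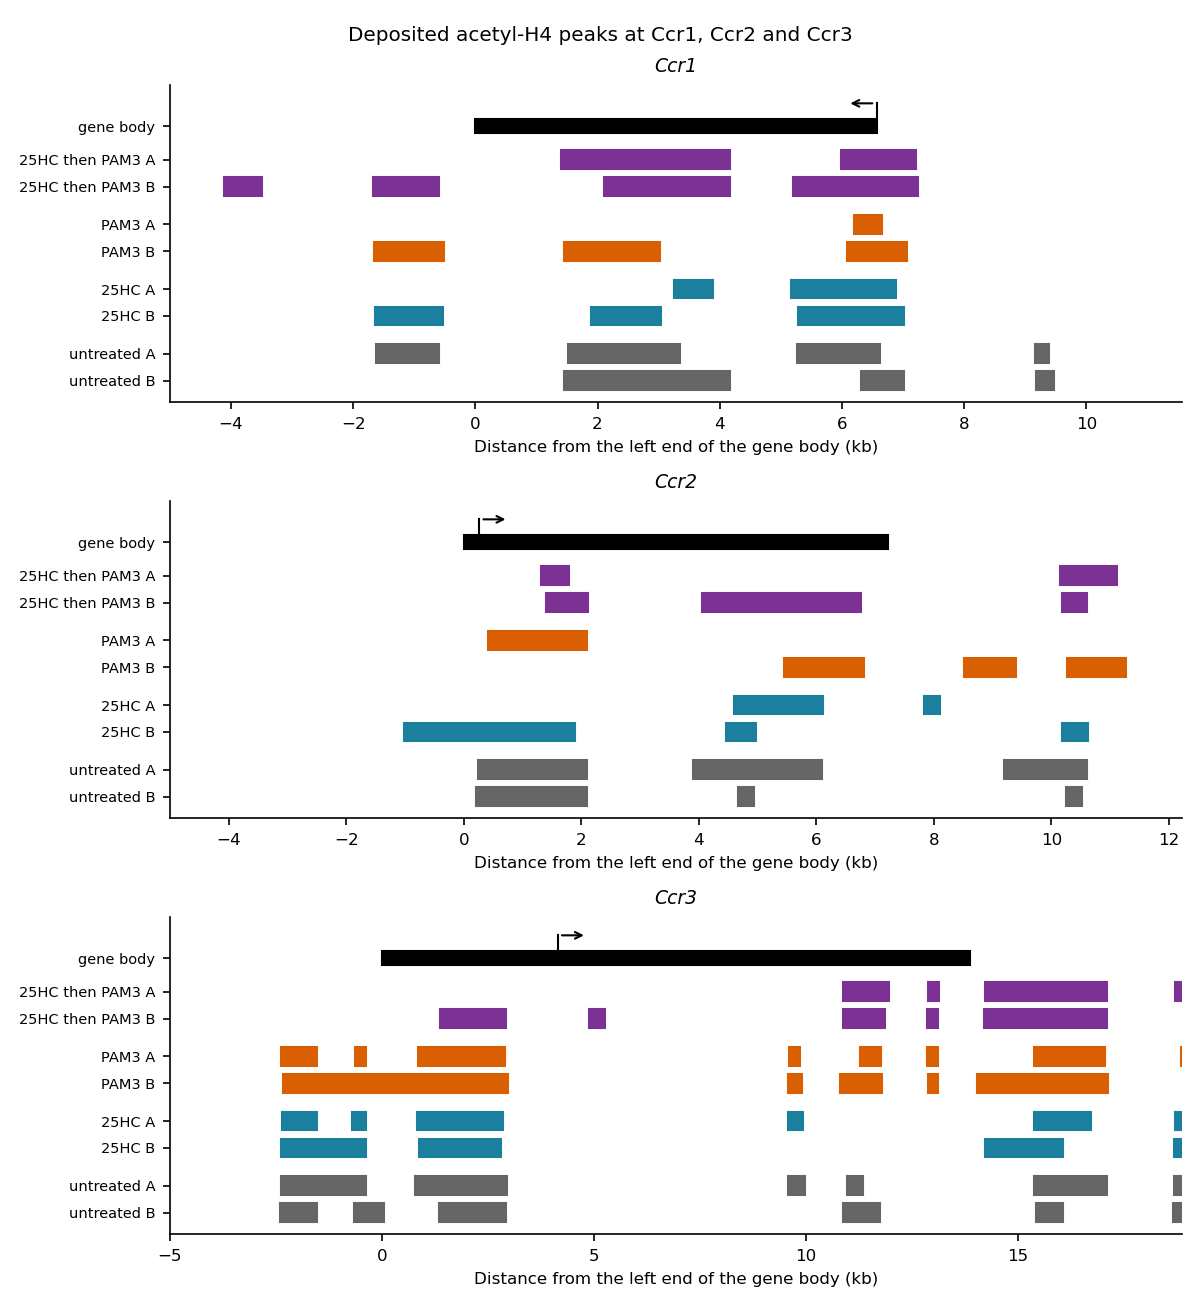
Peaks at Ccr1, Ccr2 and Ccr3 in each library, by distance in kb from the left end of each gene body (black bar); coloured bars are peaks and the arrow marks the listed gene start. The short Ccr3 peak near 13 kb is present in the 4 libraries with PAM3 and in no other, and the peaks at Ccr2 change place from library to library.

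Ccrl2 had peaks over its starts in all 8 libraries, and Cxcr4 in all but PAM3 B. Cxcr4 (gene body chr1:128588199-128592299, minus strand), the receptor for Cxcl12, had 2904 and 2962 bp in 25HC then PAM3 A and B, 2794 and 2083 bp in PAM3 A and B, 2956 and 2952 bp in 25HC A and B, and 2963 and 2966 bp in untreated A and B. The 4 libraries without PAM3 lay within 2952 to 2966 bp, and both PAM3 libraries were lower than every other. PAM3 against untreated gave −0.20 on the log2 scale (SE 0.19, 95% interval −0.67 to 0.27; limma, adjusted p = 0.635), and 25HC then PAM3 against PAM3 gave 0.23 (SE 0.19; adjusted p = 0.657). The exact permutation p over PAM3 was 0.0857 (two-sided, n = 4 each), where the smallest possible is 0.0286. In PAM3 B the single peak of the other libraries was listed as 2 peaks with a gap at the start, and without that library the value for PAM3 against untreated was 0.082. The window held 1 region (chr1:128590584-128593576), and 64.6% of its called bases were called in all 8 libraries.

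Ccrl2 (gene body chr9:111054834-111057518, minus strand) had 2682 and 2729 bp in 25HC then PAM3 A and B, 2419 and 2598 bp in PAM3 A and B, 2718 and 2878 bp in 25HC A and B, and 2887 and 2697 bp in untreated A and B. Both PAM3 libraries were below every other library, by a small margin. PAM3 against untreated gave −0.08 on the log2 scale (SE 0.10, 95% interval −0.33 to 0.16; limma, adjusted p = 0.721), and 25HC then PAM3 against 25HC gave −0.06 (SE 0.10; adjusted p = 0.800). The exact permutation p over PAM3 was 0.0857 (two-sided, n = 4 each). A long peak over its starts (chr9:111055948-111058372) was called over 2056 to 2360 bp and a shorter one 1814 bp upstream (chr9:111059332-111060100) over 331 to 693 bp. Of its called bases 70.04% were called in all 8 libraries. That share was 21.6% for Cx3cr1, 5.85% for Ccr3, 4.43% for Ccr1 and 0 for Ccr2 and Ccr7, and its median over all genes tested was 30.3%.

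**Figure D4:**
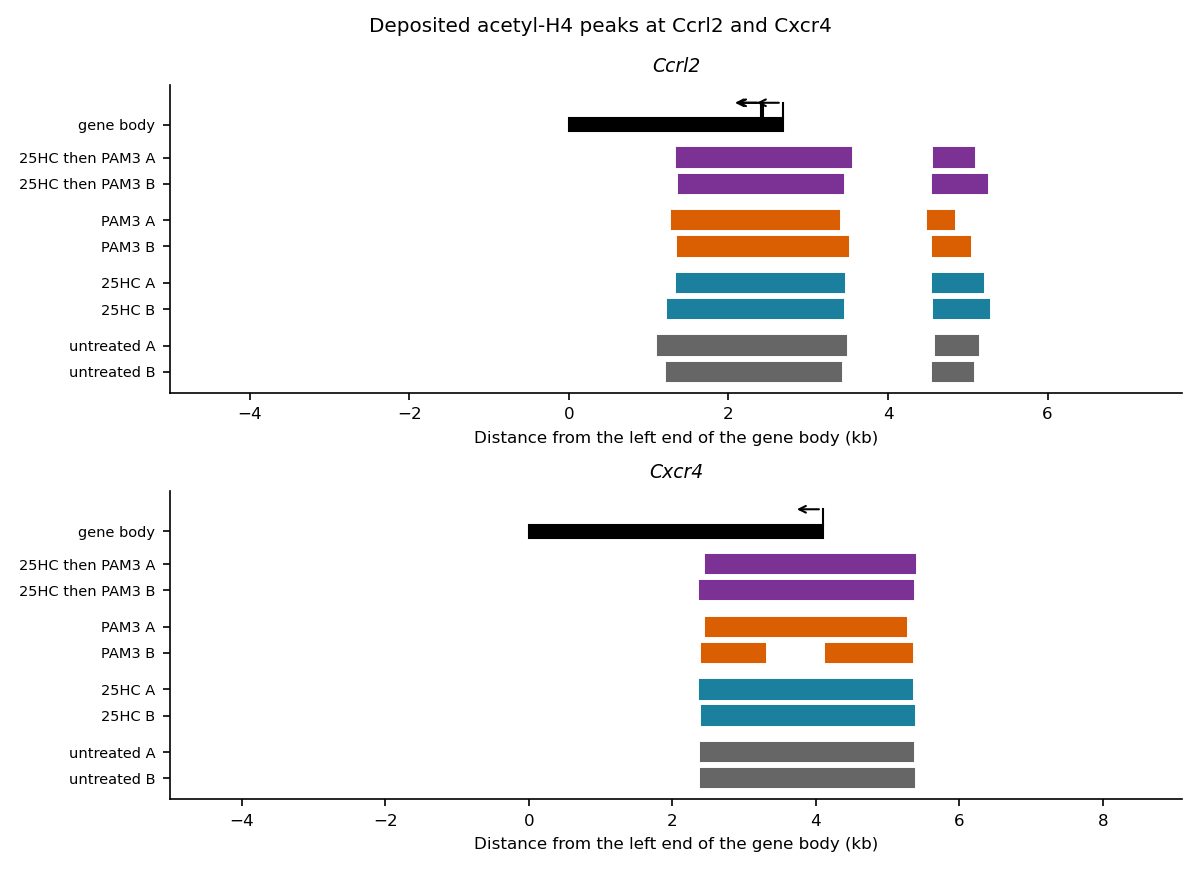
Peaks at Ccrl2 (top) and Cxcr4 (bottom) in each library, by distance in kb from the left end of the gene body (black bar); coloured bars are peaks and arrows mark listed gene starts. The peaks hold their place in all 8 libraries, apart from the gap at the Cxcr4 start in PAM3 B.

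**Figure D5:**
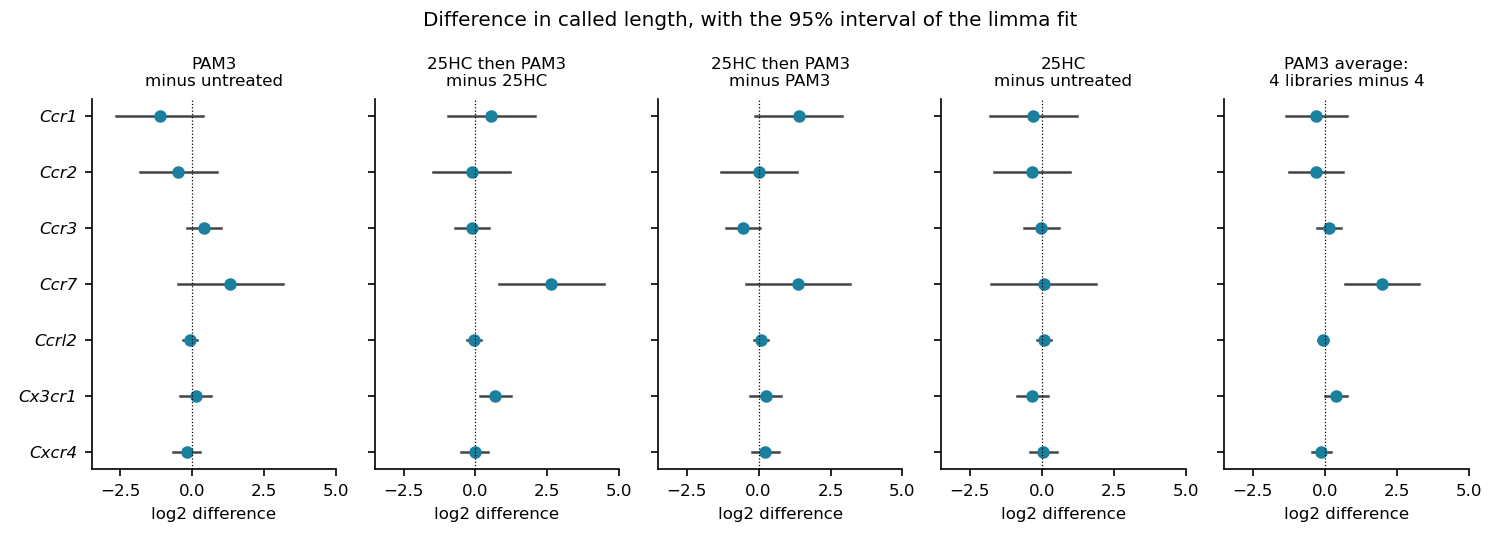
Difference in called length (log2 scale, horizontal axis) of each receptor gene in 5 contrasts, with points for the limma estimate and lines for its 95% interval. The intervals of Ccr7 and Cx3cr1 lie above 0 in 25HC then PAM3 minus 25HC and in the average over PAM3, and every other interval crosses 0.

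Of the 7 receptors, 2 had groups that did not overlap in PAM3 against untreated (Ccrl2 and Cxcr4, both lower with PAM3), against 47.2% of genes tested, or 30.2% lower. There were 2 in 25HC then PAM3 against 25HC (Ccr7 and Cx3cr1, both higher), against 53.5%, or 28.2% higher. There were 2 in 25HC against untreated (Cx3cr1 and Cxcr4, both lower), against 37.8%, or 27.8% lower. For Cxcr4 this set 2956 and 2952 bp against 2963 and 2966 bp, and its limma log2 difference, after median subtraction, was 0.058. In 25HC then PAM3 against PAM3 there were 3 (Ccr1, Ccrl2 and Cxcr4, all higher), against 38.7%, or 21.3% higher. Over 4 libraries against 4 no receptor separated the groups, against 16.8% of genes tested. Comparisons with a group in common share its libraries.

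Receptors outside these 7 were described through a list of 18, of which 14 were tested and 3 had no peak in any library. Over 4 libraries with PAM3 against 4 without, 2 of the 14 rose and 0 fell, where 11.8% of all genes tested were called, with a median log2 difference of 0.06 against −0.01 over all genes tested. Ccr4, a receptor of type 2 helper and regulatory T cells, had 4603 and 5893 bp in 25HC then PAM3 A and B, 2472 and 4210 bp in PAM3 A and B, 1415 and 1315 bp in 25HC A and B, and 1362 and 1185 bp in untreated A and B. All 4 libraries with PAM3 were above all 4 without, and the difference was 1.36 on the log2 scale (SE 0.13; limma, adjusted p = 0.00533, and 0.0165 in the fit that blocks on the mouse). It passed in PAM3 against untreated (log2 1.13, adjusted p = 0.0379, blocked 0.0726) and in 25HC then PAM3 against 25HC (log2 1.59, adjusted p = 0.0147), as the only member of the list in each, with 14 tested. Those calls were not held by every fit without 1 library, with adjusted p up to 0.124 and 0.0856. The window of Ccr4 overlaps that of Trim71. Xcr1, the receptor of cross-presenting dendritic cells, rose over 4 libraries with PAM3 against 4 without, by 0.34 (SE 0.06, limma, adjusted p = 0.0259, blocked 0.0515). The window of Xcr1 overlaps that of Fyco1. No member passed in 25HC against untreated or in 25HC then PAM3 against PAM3.

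The ligands of the receptors were a list of 16, of which 12 were tested. Over 4 libraries against 4, 3 of the 12 rose and 1 fell, where 11.8% of all genes were called, with a median of 0.15 against −0.01 over all genes. Ccl7, a monocyte attractant that binds Ccr2, had 5187 and 6274 bp in 25HC then PAM3 A and B, 3834 and 5183 bp in PAM3 A and B, 2961 and 2640 bp in 25HC A and B, and 2382 and 1756 bp in untreated A and B, with a difference of 0.95 (limma, adjusted p = 0.00925, blocked 0.0235). Its window overlaps that of Ccl2, another Ccr2 ligand, which rose as well (log2 1.17, adjusted p = 0.0423, blocked 0.0778) and is named after its values were seen. Cxcl12, the ligand of Cxcr4, fell: it was at 0 in all 4 libraries with PAM3, against 1229 and 881 bp in 25HC A and B and 912 and 1037 bp in untreated A and B (adjusted p = 0.0131, blocked 0.0284). Only the libraries without PAM3 brought Cxcl12 past the filter on low values, so its p values follow a selection on those libraries. Ccl8 was at 0 in both 25HC libraries and had 1121 to 2409 bp in all others (adjusted p = 0.0256 over PAM3, blocked 0.0533). Its log2 difference was 0.22 in PAM3 against untreated and −1.91 in 25HC against untreated (limma, adjusted p = 0.737 and 0.26). In PAM3 against untreated 1 ligand rose, Ccl7 (adjusted p = 0.0361, blocked 0.0738), and 0 fell. In 25HC then PAM3 against 25HC, Ccl7 and Ccl8 rose and Cxcl12 fell (adjusted p = 0.0415, 0.0257 and 0.0470), and all 3 calls ended with the block (adjusted p = 0.0791, 0.0588 and 0.0814). The fractalkine gene Cx3cl1 had 2167 to 3229 bp in the 8 libraries, and the Ccr7 ligand genes Ccl19 and Ccl21a had none.

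Of 22 genes for signalling and desensitisation of these receptors, all were tested, and 2 rose and 0 fell over 4 libraries against 4, a share no higher than the 11.8% called among all genes, with a median of 0.12 against −0.01 over all genes. Pik3cg, the catalytic subunit of the phosphoinositide kinase that G-protein-coupled receptors switch on, had 14290 and 13542 bp in 25HC then PAM3 A and B, 11738 and 17092 bp in PAM3 A and B, 6152 and 5004 bp in 25HC A and B, and 7874 and 6810 bp in untreated A and B. Its difference was 1.09 on the log2 scale (SE 0.12; limma, adjusted p = 0.00775, blocked 0.0220). Grk5, a receptor kinase that starts desensitisation, rose by 0.56 (adjusted p = 0.0356, blocked 0.0594). Between pairs of groups, Pik3cg rose in PAM3 against untreated and in 25HC then PAM3 against 25HC (adjusted p = 0.0460 and 0.0247, blocked 0.0858 and 0.0532). Rgs16, which speeds the shut-off of G proteins, had 2049 and 2167 bp in 25HC then PAM3 A and B, 578 and 879 bp in PAM3 A and B, 1368 and 1454 bp in 25HC A and B, and 1561 and 1861 bp in untreated A and B. It fell in PAM3 against untreated (log2 −0.81, adjusted p = 0.0316, blocked 0.0600) and rose in 25HC then PAM3 against PAM3 (log2 1.09, adjusted p = 0.0312, blocked 0.0751). The direction of Rgs16 in PAM3 against untreated turned to 0.18 with a window of 10 kb on either side. Of the 18 calls in the lists of other receptors, ligands and signalling genes, only some held in every fit without 1 library. They were those of Ccr4, Ccl7 and Pik3cg in the average over PAM3. Cxcl12 passed the filter on low values through the libraries without PAM3 alone, and was tested only where a library with PAM3 was left out. How its call depends on the libraries without PAM3 was therefore not tested.

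Markers of other cells were examined in the same lists. Lymphocyte markers (7 genes) summed to 6394 to 7996 bp with 25HC then PAM3, 7535 to 8473 bp with PAM3, 10183 to 11051 bp with 25HC and 7837 to 10101 bp in untreated cells. Neutrophil markers (5 genes) summed to 2634 to 3363, 1270 to 2001, 3298 to 3853 and 3789 to 4036 bp in the same groups, and fibroblast and endothelial markers (5 genes) to 4506 to 5356, 4523 to 4583, 3992 to 4345 and 5713 to 6406 bp. Their part in the receptor values was not tested.

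For each receptor, the genes on other chromosomes whose centred log2 called length followed it most closely over the 8 libraries were taken as a description. Fbxo2 and Ostf1 were most like Ccr1 (Pearson r = 0.980 and 0.978), and Tbcd and Odf3 most like Ccr2 (r = 0.957 and 0.935). Tmem161a and Iqgap3 were most like Ccr3 (r = 0.960 and 0.947). Cdc34 and Cysltr1, a leukotriene receptor gene, were most like Ccr7 (r = 0.993 and 0.992). Cysltr1 had 2572 and 2750 bp in 25HC then PAM3 A and B, 967 and 2411 bp in PAM3 A and B, 877 and 963 bp in 25HC A and B, and 989 and 912 bp in untreated A and B, so that it too was long in the same 3 libraries. Armc10 and Rfxap were most like Ccrl2 (r = 0.967 each), Myo10 and Slc23a2 most like Cx3cr1 (r = 0.986 and 0.983), and Slc25a27 and Wnt9a most like Cxcr4 (r = 0.995 each). Each was picked from 12746 to 13156 genes over 8 points that share their libraries, and 1% of those genes reached an r of 0.755 (Ccr2) to 0.953 (Cxcr4).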

How the data were processed

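Acetyl-H4 ChIP-seq was analysed in 8 BMDM libraries, 1 deposited peak list each. Per the submitters' processing notes, GSNAP, MACS2 2.1.0 and GRCm38 (mm10) were used. The sources used here do not give control libraries, filters or thresholds. The deposited lists also hold the authors' score, fold enrichment (ratio), −log10 p and −log10 q per peak. Between peaks of mouse A and B that overlap in the same group, the deposited fold correlated by 0.103 to 0.195 (Spearman) and the −log10 q by 0.0856 to 0.166, against 0.681 to 0.780 for length. The −log10 q of neighbouring peaks in the mouse A lists correlated by 0.554 to 0.586 (Pearson, log scale), and their lengths by 0.0135 to 0.0198, so these values may not belong to the peak on their line. Only peak positions were therefore used, apart from 2 alternatives that select peaks by −log10 q (a threshold, and the same number of peaks per library). The lists hold no reads, so depth is unknown and counting error cannot be given.

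Called length was summed per gene body with 5 kb on either side and taken as log2(bp + 500), less the library median. Genes with a mean of at least 500 bp were tested with limma 3.58.1 (trend, robust) in R 4.3.3 over the 4 groups, and p was adjusted by Benjamini-Hochberg over 14589 genes. Fold changes are on this scale and understate those of short lengths. Where a group was at 0, lengths are given, and any log2 value, as for Ccr7, depends on the 500 bp added. Residual degrees of freedom were 4, and 3 in the fit that blocks on the mouse. Libraries with the same letter share a mouse, per the labels, and how they deviated from their groups correlated by −0.017 to 0.0304 over 6 pairs of groups. The fit without the block is reported, and "blocked" marks adjusted p from the other. Receptors and gene lists were chosen with earlier results of these data known. List genes were named by a rule, up to 3 under adjusted p 0.05 per contrast by smallest p. Exact permutation tests of 4 libraries against 4 were two-sided. The fit was checked on simulated data. Promoters come from a RefSeq table, which matched 6 of the 7 receptors, and exon positions were not used here. Some items of the gene lists are not reported here.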

Additional observations from a re-analysis of the deposited data

How the results depend on the processing

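No receptor was called in 51 of 54 fits over the 6 contrasts that changed the processing and in 43 of 48 that left out a library. The exceptions were 1 call (Ccr7) in 25HC then PAM3 against 25HC with the same number of peaks per library (adjusted p = 0.0266), and 1 (Ccr7) in the average over PAM3 with a window of 10 kb (adjusted p = 0.0437) or the same number of peaks (adjusted p = 0.0302). Leaving out 1 library each, 0 to 1 receptors were called in PAM3 against untreated, 0 to 2 in 25HC then PAM3 against 25HC and 0 to 2 in the average over PAM3. The alternatives with the same number of peaks and with a threshold on −log10 q select peaks by deposited values that may not belong to their peaks. With the mouse as a block 0 receptors were called in every contrast (limma). The block gave 168 calls over all genes in PAM3 against untreated, 281 in 25HC then PAM3 against 25HC, 0 in 25HC against untreated and in 25HC then PAM3 against PAM3, and 1236 in the average over PAM3. Keeping peaks whose −log10 q reached 5, 0 genes passed in any contrast (limma, 690 to 1716 at unadjusted p under 0.05). Without median subtraction the counts were 321, 360, 5, 91 and 1095 in the same order, and the median gene shifted by −0.05 to 0.06.

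Log2 values of uncalled receptors changed sign as follows, and the cause was not tested. In PAM3 against untreated, Ccrl2 was 0.10 with a window of 10 kb, and Cx3cr1 −0.093 with 2 kb and −0.10 with that threshold on −log10 q. In 25HC then PAM3 against 25HC, Ccr3 was 0.075 with that threshold and Ccrl2 0.19 with 10 kb. In 25HC against untreated, Ccr1 was 1.42 with that threshold and 0.31 with the same number of peaks, Ccr3 0.020 with 2 kb, 0.044 with 10 kb and 1.11 with that threshold, and Ccrl2 −0.075 with 10 kb. Without median subtraction Cxcr4 was −0.0044 and Ccr7 0 there. In 25HC then PAM3 against PAM3, Ccr2 was −0.28 with 2 kb, −0.074 with 10 kb and −0.26 with peaks of at least 500 bp (chosen after seeing the data), Ccrl2 was −0.014 with 2 kb and −0.015 with that threshold, and Cxcr4 −0.71 with that threshold. In the average over PAM3, Ccr1 was 0.037 with the same number of peaks, Ccr3 −0.016 and Ccrl2 0.15 with 10 kb. For the difference of responses, Ccr2 was −0.13 and Ccrl2 −0.019 with 2 kb, and Ccrl2 −0.29 and Cxcr4 −0.82 with that threshold. Of the list genes, Rgs16 was 0.18 in PAM3 against untreated with 10 kb and −0.85 in 25HC then PAM3 against PAM3 with that threshold. In bp with PAM3 minus without, Ccr1 was 52.5 with that threshold and 583 with the same number of peaks, Ccr3 −115 and Ccrl2 560 with 10 kb, and Cx3cr1 −215 with that threshold.

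Leaving out 1 library each, ranges crossed 0 for Ccr2 (−0.99 to 0.011), Cx3cr1 (−0.22 to 0.44) and Cxcr4 (−0.48 to 0.082) in PAM3 against untreated, and for Ccr2 (−0.68 to 0.41) and Ccr3 (−0.29 to 0.065) in 25HC then PAM3 against 25HC. They did so for Ccr1 (−0.59 to 0.014), Ccr2 (−0.84 to 0.16) and Ccr3 (−0.22 to 0.21) in 25HC against untreated, and for Ccr2 (−0.52 to 0.56), Cx3cr1 (−0.081 to 0.58) and Cxcr4 (−0.057 to 0.51) in 25HC then PAM3 against PAM3. The average over PAM3 ranged from −0.77 to 0.18 for Ccr1 and −0.26 to 0.024 for Cxcr4, and the difference of responses from −0.18 to 0.90 for Ccr2, −0.047 to 0.081 for Ccrl2 and −0.11 to 0.45 for Cxcr4. A group left with 1 library is assumed to vary like the others. Merging peaks only at an overlap of 50% changed the regions of Ccr2 alone, to 5 in place of 4.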
